A study of Mus musculus with 12 samples.

Results

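The collagen genes were taken as every transcript cluster on the arrays whose only gene symbol in the platform annotation is that of a collagen alpha chain, with all transcript clusters of a gene kept. A transcript cluster is the group of probes an array summarises into one value, and it is called a row here. This gave 46 rows for 42 genes, out of 35556 rows in all and 21218 rows with a single symbol. Col5a1, Col6a5, Col6a6 and Col20a1 had more than 1 row each, named row 1 and row 2. By structure, 12 rows were of fibrillar collagens, 9 of fibril-associated collagens, 6 of collagen IV, 8 of collagen VI, 3 of short-chain network collagens, 2 of multiplexins, 4 of transmembrane collagens and 2 of other collagens.

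Collagens are secreted proteins whose alpha chains wind into triple helices in the endoplasmic reticulum, after hydroxylation of prolines and lysines. Fibrillar chains assemble into the tensile fibrils of connective tissue, collagen IV forms the network of basement membranes, and collagen VI forms beaded filaments close to the cell surface. In the heart they are made mainly by fibroblasts and vessel cells, and the brain holds them mostly in vessels and meninges, while a few transmembrane chains are made by neurons.

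Whole-transcript arrays were made from heart and cerebrum of C57BL/6J mice labelled as carrying the humanized knock-in IKBKAP allele FDloxP/+, a model for familial dysautonomia (FD), a hereditary neuropathy. From 4 months of age and for 3 months the mice were gavaged every other day with 100 µl of phosphatidylserine (PS, a membrane phospholipid, 200 mg/kg) or of the vehicle, medium-chain triglycerides (MCT). Each of the 4 groups, heart MCT, heart PS, cerebrum MCT and cerebrum PS, had 3 arrays, and their number limits the precision. All 12 arrays share strain and genotype label; the design text speaks of 6 FD mice but the growth protocol of 3 FD and 3 wild-type mice, and the source names give the dose per day. Whether the mice of a group came from separate litters or cages is not given in the sources used here, and the labels do not say whether the heart and the cerebrum of the same number came from 1 mouse.

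The tissue labels matched their markers: the mean of 7 ventricular cardiomyocyte markers was 12.07 to 12.28 in the 6 heart arrays and 5.47 to 5.66 in the 6 cerebrum arrays, and that of 8 neuron markers was 4.76 to 4.91 and 10.52 to 10.70. All values are log2 intensities as deposited, with array medians between 4.89 and 5, so a difference of 1 is 2-fold. Xist, the RNA of the inactive X chromosome, read 8.92 to 9.13 in the 3 heart PS arrays and in cerebrum PS 1 and PS 3 it read 9.55 and 9.86, against 3.32 to 4.03 in the other 7 arrays, where the Y-linked genes were high. Heart PS 2 had the female pattern and cerebrum PS 2 the male one, so these 2 arrays of the same number were not from 1 mouse. In heart, this female or male pattern and the treatment cannot be told apart. Array heart PS 2 and the arrays cerebrum PS 1 and PS 2 stood apart from the rest of their groups in ways that touch the collagen values, as described beside those results. The mean of 7 atrial cardiomyocyte markers was 7.79 in heart MCT 3 and 7.54 in heart PS 3, against 6.80 to 7.11 in the other heart arrays. The members did not all follow this mean. Myl7 read 8.53 and 6.80 in these 2 arrays, against 4.16 to 5.08 in the others, while Nppa was lowest in them, at 10.44 and 10.71.

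Promoter sequence was at hand for 34 of the 42 collagen genes (37 windows; RefSeq, GRCm38.p6). The 250 bases upstream of the start are shown for 2 fibrillar chains and 1 collagen VI chain that moved together in 1 heart array, and for the neuronal chain Col25a1, which was higher in cerebrum. Capitals mark TATAAA (the TATA box), CCAAT (the CCAAT box), GGGCGG (the GC box) and CAGACA (part of Smad-binding elements), each searched on both strands, so that a match on the other strand appears as its reverse complement. Col1a2 lies at chr6:4505368-4505617 on the plus strand, Col3a1 at chr1:45311288-45311537 on the plus strand, Col6a1 at chr10:76726045-76726294 on the minus strand and Col25a1 at chr3:130180595-130180844 on the plus strand.
Col1a2: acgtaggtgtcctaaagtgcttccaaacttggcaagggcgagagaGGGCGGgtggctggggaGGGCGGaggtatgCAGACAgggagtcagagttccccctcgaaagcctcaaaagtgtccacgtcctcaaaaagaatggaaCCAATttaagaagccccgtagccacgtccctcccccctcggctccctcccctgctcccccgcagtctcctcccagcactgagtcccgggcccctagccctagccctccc
Col3a1: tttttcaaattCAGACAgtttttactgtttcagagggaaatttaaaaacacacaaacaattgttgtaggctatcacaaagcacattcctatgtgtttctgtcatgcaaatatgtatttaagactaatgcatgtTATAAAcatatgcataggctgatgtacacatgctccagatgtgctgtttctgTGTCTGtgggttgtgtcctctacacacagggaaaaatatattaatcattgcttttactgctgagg
Col6a1: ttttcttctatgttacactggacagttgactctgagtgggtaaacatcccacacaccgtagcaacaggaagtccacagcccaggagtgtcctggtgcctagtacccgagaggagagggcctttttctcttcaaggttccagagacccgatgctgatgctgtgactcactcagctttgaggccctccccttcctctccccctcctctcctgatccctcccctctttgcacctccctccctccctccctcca
Col25a1: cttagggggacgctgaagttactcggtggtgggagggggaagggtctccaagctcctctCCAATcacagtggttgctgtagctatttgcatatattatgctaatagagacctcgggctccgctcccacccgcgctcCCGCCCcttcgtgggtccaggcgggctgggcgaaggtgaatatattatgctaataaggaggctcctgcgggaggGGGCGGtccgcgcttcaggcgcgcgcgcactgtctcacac

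The Col6a1 window held none of the 4 motifs, and the others shared no single motif among all 3 of them. Over the collagen windows, TATAAA was in 5 of 37 (12.4% of all 32851 promoter windows of this length), CCAAT in 12 (33.8%), GGGCGG in 21 (32.7%) and CAGACA in 8 (17.1%). A match is a description of these letters only. Col4a1 and Col4a2, the chains that form the main collagen IV network, lie head to head on opposite strands, and the tables' 300-base windows around their starts share 78 bases.

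Heart and cerebrum were first compared in the MCT mice, which shows where each chain is expressed without PS. Of the 46 rows, 41 had a higher mean in heart, with a median difference of 0.34; over all 21218 single-symbol rows, 59.9% were higher and the median was 0.14. Rows were tested in limma where their mean over the arrays of the fit was at or above the 40th percentile of all rows, which left 15 collagen rows tested and 31 under the filter. Of those 15, 10 passed an adjusted p of 0.05, where 75.5% of all tested rows passed, and the same number had an unadjusted p under 0.05 (77.2% of all tested rows); 9 were higher in heart (35.2% of all tested rows) and 1 was lower (40.3%). A chain low in cerebrum could pass the filter only through its heart level, so the count over tested rows is no summary of the family. The fit without the filter called 26 of 46 collagen rows and 62.2% of all rows. In bulk tissue, fewer cells of a type and less RNA per cell cannot be told apart.

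The fibrillar chains had higher means in heart in 12 of 12 rows, with a median difference of 0.45, against 59.9% and 0.14 over all rows. Of these 12 rows 2 were tested and 10 were under the filter, and the differences ran from 0.03 to 1.22. Col1a1 and Col1a2 encode the chains of type I collagen, the main fibril protein of the heart's connective tissue. Col1a1 read 6.54, 6.70 and 6.44 in the heart MCT arrays and 5.25, 5.46 and 5.54 in the cerebrum MCT arrays, a difference of 1.14 (SE 0.13, adjusted p = 3.93e-05). The groups did not overlap, and every heart array was above every cerebrum array. Col1a2 differed by 1.22 (SE 0.15, adjusted p = 8.84e-05), from 6.44 ± 0.15 (SD, n = 3) in heart to 5.22 ± 0.25 in cerebrum. Col3a1, the type III chain that shares fibrils with type I, read 5.13, 5.51 and 5.05 in heart and 4.48, 4.46 and 4.54 in cerebrum, and was under the filter.

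Basement membrane and vessel chains showed the same side. Col4a1 read 6.07, 6.21 and 6.44 in heart and 4.90, 4.77 and 5.04 in cerebrum, a difference of 1.34 (SE 0.13, adjusted p = 2.13e-05). Its partner Col4a2 differed by 1.37 (SE 0.15, adjusted p = 4.05e-05). The other 4 collagen IV rows also had higher means in heart but were under the filter. Col15a1, a multiplexin of the zone between basement membrane and fibrils, had the largest difference of the called collagen rows at 1.47 (SE 0.15, adjusted p = 2.86e-05), a fold of 2.78. Col8a1, a short-chain collagen of vessel walls, differed by 1.41 (SE 0.17, adjusted p = 8.39e-05). Col14a1, a fibril-associated chain of the fibril surface, differed by 1.04 (SE 0.16, adjusted p = 0.000392).

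Collagen VI was split between its chains. Col6a2 read 6.99, 6.85 and 6.58 in heart and 5.46, 5.37 and 5.58 in cerebrum, and differed by 1.34 (SE 0.14, adjusted p = 2.22e-05). Col6a1, which encodes the chain it assembles with, read 6.46, 6.83 and 6.57 in heart and 6.71, 6.48 and 6.57 in cerebrum. The Col6a1 groups overlapped, with a difference of 0.03 (95% interval -0.27 to 0.34, adjusted p = 0.828); under quantile normalization it was 0.33 with an adjusted p of 0.0336. Col6a6 row 1 differed by 0.97 (SE 0.11, adjusted p = 4.08e-05). Col25a1, a transmembrane collagen made by neurons, went the other way: it read 4.57, 4.74 and 4.72 in heart and 5.86, 5.87 and 6.15 in cerebrum, lower in heart by a difference of -1.28 (SE 0.12, adjusted p = 1.59e-05). Col12a1, a fibril-associated chain under the filter, was the other row whose groups did not overlap with heart below cerebrum, at 4.12, 4.09 and 3.95 against 4.38, 4.36 and 4.65. In all, 31 rows had groups that did not overlap (71.2% of all rows); 29 had every heart array above every cerebrum array (41.6%) and 2 had every heart array below (29.6%).

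The same comparison in PS mice gave 41 of 46 rows with a higher mean in heart and a median difference of 0.34, where all rows had 0.07. Of 17 tested rows 15 passed (75.9% of all tested rows), 14 of them higher in heart (38.3%) and 1 lower (37.6%). Here too a chain low in cerebrum could pass the filter only through its heart level, so this count is no summary of the family. The fit without the filter called 26 of 46 collagen rows and 56.5% of all rows. Groups did not overlap in 30 rows (65.7% of all rows), with heart above in 27 (37.4%) and below in 3 (28.2%). The differences were 2.59 for Col14a1 (SE 0.53, adjusted p = 0.00256), 2.32 for Col6a2 (SE 0.33, adjusted p = 0.00036), 2.13 for Col15a1 (SE 0.37, adjusted p = 0.0011), 2.02 for Col1a2 (SE 0.47, adjusted p = 0.00544) and 1.87 for Col4a1 (SE 0.27, adjusted p = 0.000355). Col6a1 now differed by 1.41 (SE 0.45, adjusted p = 0.0218), with 6.75, 8.50 and 7.14 in heart and 5.96, 5.63 and 6.58 in cerebrum. Col26a1, a collagen first described in testis and ovary, was the row called lower in heart, by a difference of -0.28 (SE 0.10, adjusted p = 0.0384). Col25a1 was under the filter here, at 4.86, 4.62 and 4.62 in heart and 5.58, 5.29 and 5.74 in cerebrum, again without overlap.

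Much of the size in PS mice came with array heart PS 2. Without it, 11 of 14 tested rows passed (74.0% of all tested rows), and the differences were 1.92 for Col14a1, 1.91 for Col6a2, 1.65 for Col15a1, 1.39 for Col1a2 and 0.92 for Col1a1, with 0.89 for Col6a1 (adjusted p = 0.0234). Col3a1, Col6a3, Col18a1 and Col5a1 row 1 were tested in the PS comparison but not in MCT mice, and without heart PS 2 they were under the filter. The calls of Col1a1, Col3a1, Col6a1, Col8a1 and Col26a1 were lost without single cerebrum PS arrays: Col1a1 without PS 1 (adjusted p = 0.0654) or PS 3 (0.0558), Col3a1 without any of the 3 (0.0748 to 0.108), Col6a1 without PS 1 (0.0656) or PS 2 (0.0679), and Col8a1 without PS 3 (0.053). Col26a1 lost its call without cerebrum PS 1 (0.106) or PS 2 (0.115) and without each of the heart PS arrays (0.0533 to 0.117), and also under quantile normalization (0.249), median centring (0.116), an intensity trend (0.0658) and with all transcript clusters tested (0.051). Col3a1 also lost its call without the filter (0.0612) and with all transcript clusters tested (0.0565). The 2 tissue comparisons use different arrays; 39 rows had the higher mean in heart in both and 3 the lower mean in both. Col12a1, Col20a1 row 1, Col23a1 and Col6a5 row 1 had opposite signs. Without heart PS 2 the PS difference turned to the lower side for Col11a1 (-0.07), Col12a1 (-0.47) and Col6a5 row 1 (-0.09).

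**Figure D1:**
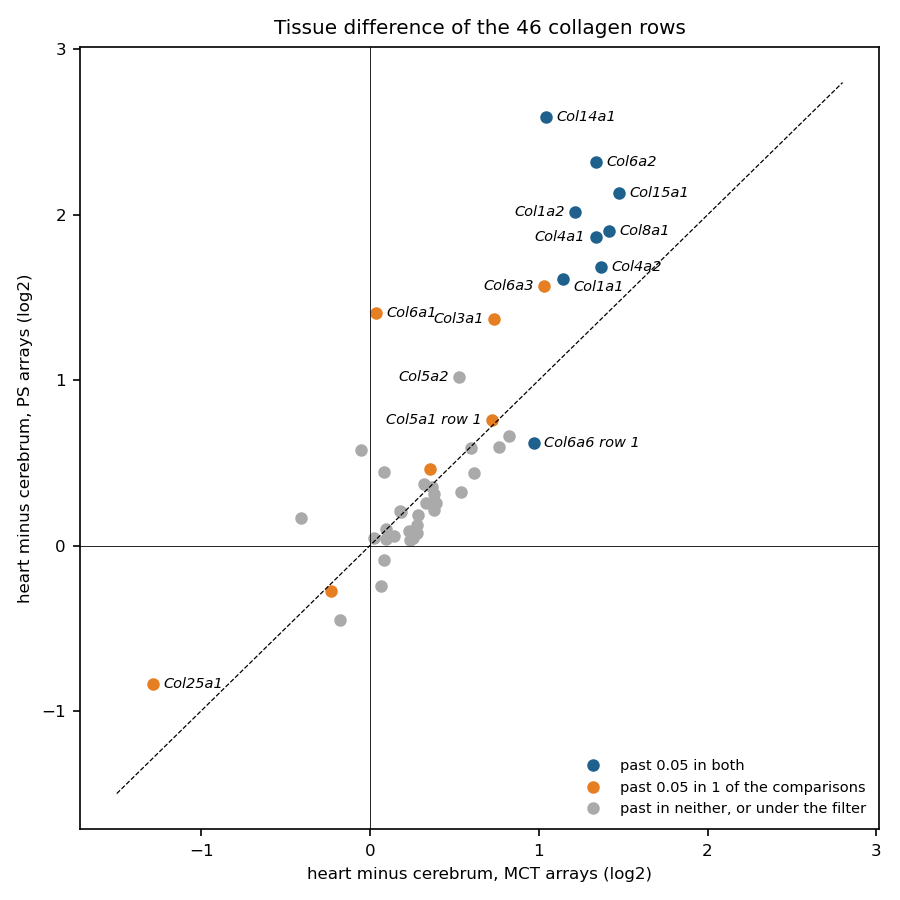
Difference between heart and cerebrum (log2, heart minus cerebrum) of each of the 46 collagen rows in MCT mice (horizontal axis) and PS mice (vertical axis); colour gives the test result and the dashed line marks equal differences. Most rows lie above 0 on both axes, Col25a1 lies below 0 on both, and Col6a1 sits at 0.03 in MCT mice and 1.41 in PS mice.

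The effect of PS was then compared within the heart. None of the 23 tested collagen rows passed an adjusted p of 0.05 in limma, where 42 of 12736 tested rows did (0.330%), and 4 collagen rows had an unadjusted p under 0.05 (23.7% of all tested rows). The count over all rows rested on single arrays: it was 3416 (26.8%) without MCT 3 and 4 to 12 without any other 1 array, with no collagen row called in any of these fits. Without MCT 3 and PS 3 together it was 1176 (9.23%), again with no collagen row called. The other 23 collagen rows were under the filter, at a mean below 4.93. Of all 46 rows 29 had a higher mean in PS, and the median difference was 0.03; over all single-symbol rows, 45.9% were higher and the median was -0.02. Col14a1, Col1a2, Col4a1, Col5a1 row 1 and Col6a2 had every PS array above every MCT array (5 of 46, 11.3% of all rows), and Col6a6 row 1 had every PS array below (1 of 46, 12.3%). Together 6 rows had groups that did not overlap, where 23.6% of all rows did.

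The type I and type III chains gave the clearest view of what lay behind the means. Col1a1 read 6.54, 6.70 and 6.44 in MCT and 6.37, 8.57 and 6.60 in PS. PS 2 was the highest array by 1.87, while PS 1 and PS 3 lay within or just below the MCT range, so the difference of 0.62 (SE 0.51, adjusted p = 0.466) was carried by 1 array. Without PS 2 it turned to -0.075 (adjusted p = 0.819). Col1a2 read 6.27, 6.52 and 6.53 in MCT and 6.64, 8.63 and 6.84 in PS, a difference of 0.93 (SE 0.47, adjusted p = 0.257), and without PS 2 it was 0.30. Col3a1 read 5.13, 5.51 and 5.05 in MCT and 5.16, 7.36 and 5.43 in PS, a difference of 0.75 (SE 0.51, adjusted p = 0.384), and without PS 2 it was 0.07. In each of these 3 rows PS 2 alone was far above the other 5 heart arrays. Col5a2, a minor chain that regulates fibril diameter, read 4.07, 4.02 and 4.49 in MCT and 4.25, 5.26 and 4.44 in PS. The cartilage chains Col2a1, Col11a1 and Col11a2 stayed between 4.43 and 5.45 in the 6 heart arrays, and PS 2 was not more than 0.06 above the next array in any of them.

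Among the fibril-associated chains, Col14a1 had the lowest p of the family. It read 5.94, 6.23 and 5.59 in MCT and 6.50, 8.88 and 7.22 in PS, a difference of 1.61 (SE 0.53, adjusted p = 0.148), or 3.06-fold. All 3 PS arrays were above all 3 MCT arrays, and PS 2 was 1.66 above the next one; without PS 2 the difference was 0.94 (SE 0.26, adjusted p = 0.317). Col12a1, a chain of fibrils under tension, read 4.12, 4.09 and 3.95 in MCT and 4.11, 6.02 and 4.09 in PS. Its PS 1 and PS 3 values were those of the MCT arrays, and the gap of 1.90 for PS 2 was the widest of any collagen row. Col9a1, Col9a2, Col16a1, Col19a1, Col20a1 and Col22a1 had no such gap, with PS 2 at most 0.03 above the next array.

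Collagen VI moved in PS 2 by chain. Col6a1 read 6.46, 6.83 and 6.57 in MCT and 6.75, 8.50 and 7.14 in PS, a difference of 0.84 (SE 0.40, adjusted p = 0.238). Col6a2 read 6.99, 6.85 and 6.58 in MCT and 7.14, 8.63 and 7.70 in PS, a difference of 1.02 (SE 0.34, adjusted p = 0.15), and 0.61 without PS 2 (adjusted p = 0.323). Col6a3, the long chain that completes the usual trimer, read 5.78, 5.49 and 5.29 in MCT and 5.41, 6.94 and 5.90 in PS. In the 3 chains of that trimer PS 2 was highest, PS 3 second and PS 1 close to or within the MCT range. Of the chains that can take the place of Col6a3, Col6a5 row 1 had PS 2 at 5.94 and the other 5 arrays at 3.76 to 4.32, but row 2 of the same gene had PS 2 at 4.97 and the others at 4.38 to 4.78, so its rows disagree in size. Col6a6 row 1 went the other way, with 6.37, 6.49 and 6.39 in MCT and 6.10, 5.94 and 6.22 in PS. Its groups did not overlap, with a difference of -0.33 (SE 0.12, adjusted p = 0.172), whereas Col6a6 row 2 overlapped.

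The basement membrane chains had smaller gaps in PS 2. Col4a1 read 6.07, 6.21 and 6.44 in MCT and 6.54, 7.61 and 6.63 in PS, a difference of 0.69 (SE 0.28, adjusted p = 0.19). Col4a2 read 6.19, 6.47 and 6.72 in MCT and 6.69, 7.42 and 6.72 in PS, a difference of 0.48 (SE 0.23, adjusted p = 0.235). Both were highest in PS 2, by 0.98 and 0.70. Without PS 2 the differences were 0.35 and 0.25. Col4a3 to Col4a6, the chains of specialised basement membranes, lay between 3.93 and 5.25 in every heart array, with PS 2 at most 0.07 above the next. Col4a5 and Col4a6 are on the X chromosome; in heart, where every PS array had the female pattern, Col4a5 differed by -0.02 (adjusted p = 0.953). Col15a1 read 6.09, 6.39 and 5.92 in MCT and 6.23, 7.78 and 6.46 in PS, a difference of 0.69 (SE 0.37, adjusted p = 0.285). Col18a1, the other multiplexin and the source of endostatin, differed by 0.20 (SE 0.13, adjusted p = 0.368). Col8a1 read 6.37, 6.87 and 6.27 in MCT and 6.39, 8.53 and 6.14 in PS; without PS 2 its difference of 0.52 turned to -0.24 (adjusted p = 0.58). The 4 transmembrane rows differed by -0.16 to 0.03.

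**Figure D2:**
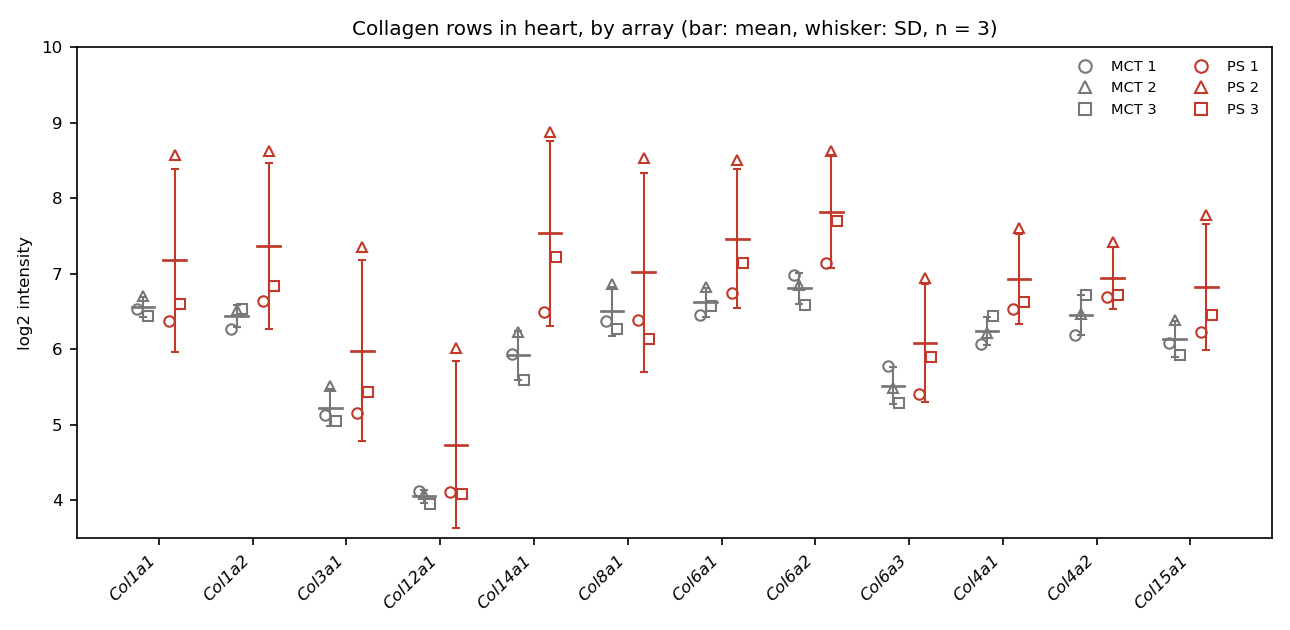
Log2 intensity of 12 collagen rows in each heart array, MCT in grey and PS in red, with the symbol giving the array number, the bar the mean and the whisker the SD of 3 arrays. PS 2 (red triangle) lies above the other arrays in all 12 rows, by 1.87 for Col1a1 and 0.70 for Col4a2.

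Counted over the family, heart PS 2 was the highest of the 6 heart arrays in 23 of 46 rows (22.0% of all rows), and it was over 1 above the next array in 10 of 46 rows (0.584% of all rows, 124 of 21218). These 10 were Col1a1, Col1a2, Col3a1, Col12a1, Col14a1, Col6a1, Col6a3, Col6a5 row 1, Col8a1 and Col15a1. No other heart or cerebrum array was over 1 above the next of its tissue in any collagen row. In all rows, the other 5 heart arrays had 0 to 11 such gaps. The gap did not follow the classes as wholes: Col18a1 had a gap of 0.15 beside 1.32 for Col15a1, Col5a1 row 1 had 0.26 beside 1.87 for Col1a1, and PS 2 was not the highest array for Col6a4, Col6a6 row 1 or Col5a3. The cartilage, transmembrane and minor collagen IV chains had no gap over 0.07. The comparison of PS with MCT without PS 2 called 12 of 12734 rows (0.0942%) and no collagen row, with 2 collagen rows at an unadjusted p under 0.05.

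**Figure D3:**
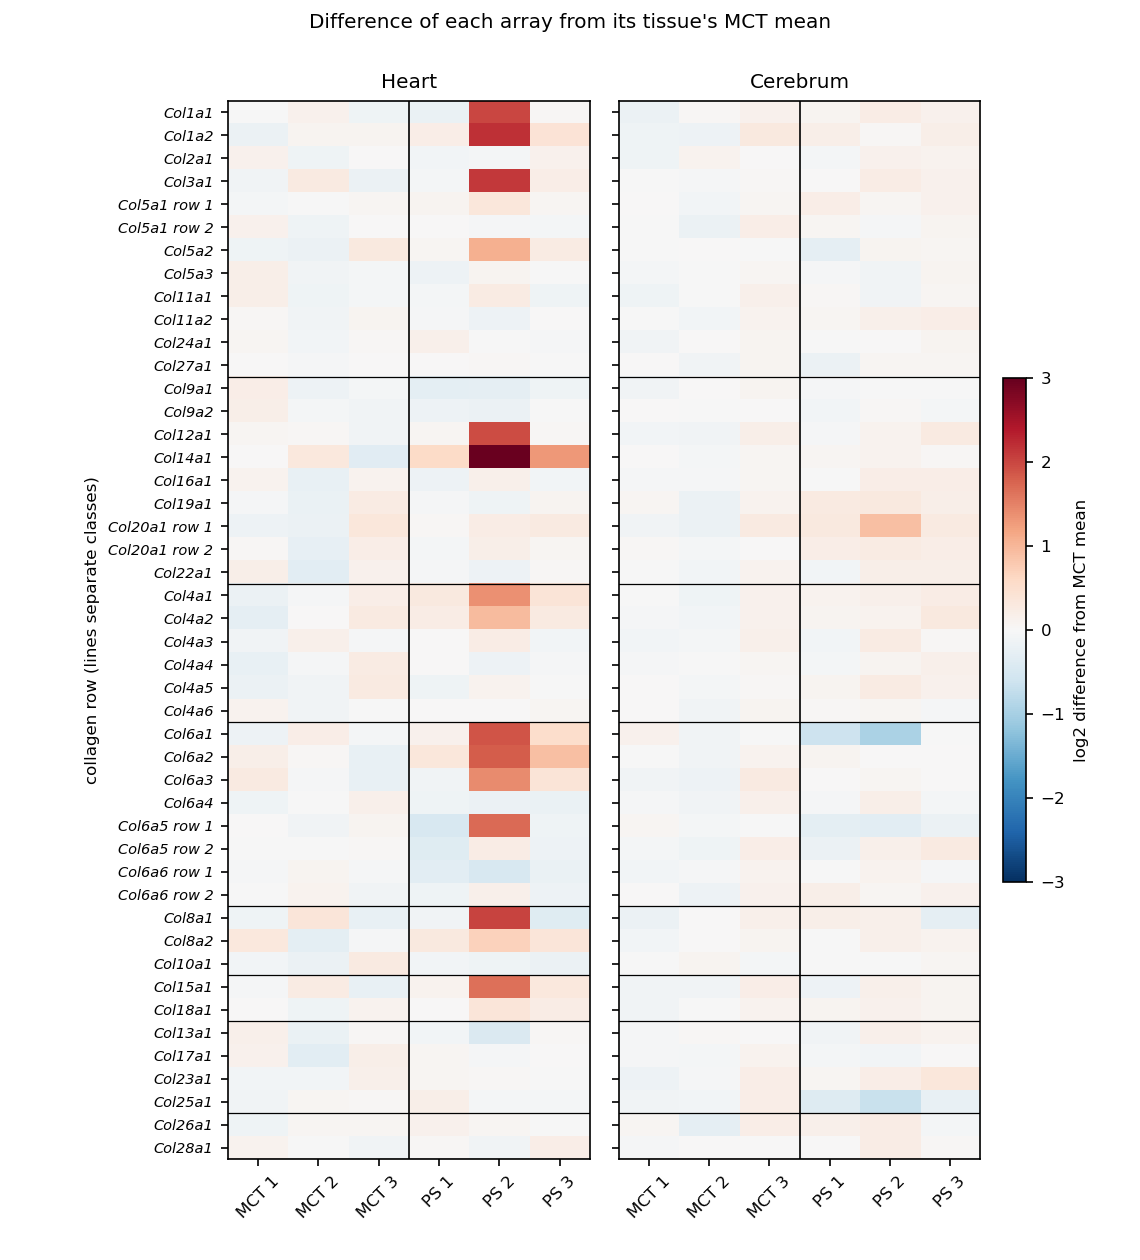
Difference of every array from the MCT mean of its tissue (log2, colour scale from -3 to 3) for the 46 collagen rows in heart (left) and cerebrum (right), rows grouped by structure and arrays in columns. The heart PS 2 column holds the strong positive values, up to 2.96 for Col14a1, and Col6a1 and Col25a1 are below the MCT mean in cerebrum PS 1 and PS 2.

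Other genes of collagen making and turnover were read from fixed lists. In heart, 0 of 75 tested genes of the 6 lists passed in limma. Their counts are to be read against all rows, of which 45.9% had a higher mean in PS, and against all tested rows, of which 23.7% had an unadjusted p under 0.05. Of 17 measured genes for hydroxylation, glycosylation and folding, 15 had a higher mean in PS, and 8 of 17 tested had an unadjusted p under 0.05; Crtap, a subunit of the prolyl 3-hydroxylase complex, differed by 0.48 (SE 0.12, adjusted p = 0.122) and Plod3, a lysyl hydroxylase, by 0.74 (SE 0.18, adjusted p = 0.123). Of 14 for export, propeptide cleavage and cross-linking, 12 were higher and 4 of 11 tested had such a p; Pcolce, which enhances propeptide cleavage, differed by 0.80 (SE 0.21, adjusted p = 0.128) and Bmp1, the C-proteinase, by 0.52 (SE 0.18, adjusted p = 0.161). Of 16 for breakdown and its inhibitors, 14 were higher and 4 of 12 tested had such a p; Timp3, an inhibitor of metalloproteinases, read 9.09, 9.65 and 9.98 in MCT and 10.53, 10.86 and 10.77 in PS, a difference of 1.15 (SE 0.22, adjusted p = 0.101). All 3 PS arrays of Timp3 were above all 3 MCT arrays and close to each other.

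Of 8 collagen receptors 7 were higher and 0 of 5 tested had an unadjusted p under 0.05; the integrin chain Itga1 differed by 0.40 (SE 0.18, adjusted p = 0.232). Of 22 matrix partners of collagen 21 were higher and 8 of 19 tested had such a p; Nid1, a basement membrane linker, differed by 0.88 (SE 0.21, adjusted p = 0.122) and Eln, elastin, by 0.82 (SE 0.21, adjusted p = 0.123). Of 11 TGF-beta ligands and matrix inducers 11 were higher and 3 of 11 tested had such a p; Smad7, the inhibitor of TGF-beta signalling, differed by 0.81 (SE 0.17, adjusted p = 0.118) and Ltbp4, which holds latent TGF-beta in the matrix, by 0.82 (SE 0.21, adjusted p = 0.123).

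The same array again held the highest values. The lists' median difference from the MCT mean was 0.38 to 1.15 in PS 2, 0.00 to 0.21 in PS 1 and 0.12 to 0.44 in PS 3. Chosen after their values were seen, the genes with the widest gap of PS 2 to the next heart array over all rows were Cilp (3.72), Angptl7 (3.66), Sfrp2 (3.35) and Postn (3.23). Postn, periostin, a matrix protein of activated fibroblasts, read 6.68, 7.18 and 6.62 in MCT and 7.02, 10.41 and 7.18 in PS. Lox, the lysyl oxidase that cross-links collagen, read 4.63, 4.90 and 4.17 in MCT and 4.73, 7.72 and 4.68 in PS. Timp1 read 6.07, 5.90 and 5.15 in MCT and 5.26, 8.49 and 5.38 in PS. In all 3 genes PS 1 and PS 3 overlapped the MCT arrays.

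Cell type markers were set beside these values. The mean of 12 fibroblast markers was 7.41 to 7.79 in the MCT arrays and 7.79, 8.72 and 7.85 in PS 1, PS 2 and PS 3. Of these 12, 11 were highest in PS 2, and 3 by over 1. Over all rows PS 2 was the highest heart array in 22.0%, and by over 1 in 0.584%. The 3 fibroblast markers with the highest mean over the 6 heart arrays were Dcn, at 11.35 to 11.54 in MCT and 11.96 in PS 2, Dpep1, at 9.09 to 9.39 and 10.01, and Gsn, at 9.39 to 9.47 and 10.27. Chosen after their values were seen, the widest shifts in the list were those of Mfap5, at 6.05 to 7.43 in MCT and 9.70 in PS 2, and Pi16, at 6.55 to 6.72 and 8.91. The shift of the 12 markers in PS 2 from the MCT mean ran from 0.32 to 2.96. The mean of 8 markers of valve and epicardium was 5.20 to 5.39 in MCT and 4.93, 6.36 and 5.40 in PS. For 11 endothelial markers it was 8.41 to 8.87 in MCT and 9.02, 9.29 and 9.09 in PS. For 11 markers of smooth muscle and pericytes it was 7.48 to 7.98 and 8.15, 8.50 and 8.19. The list mean was thus higher in every PS array than in every MCT array in both lists. By gene, 10 of 11 endothelial and 9 of 11 smooth muscle and pericyte markers had a higher mean in PS (45.9% of all rows). Cldn5, Rgs5 and Kcnj8 had a lower one. Of 8 macrophage markers 7 were highest in PS 2, with a mean of 7.58 against 6.79 to 7.26 in the other 5 arrays. The 7 ventricular markers had 0 genes highest in PS 2. The part of these cell types in the collagen values was not tested.

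**Figure D4:**
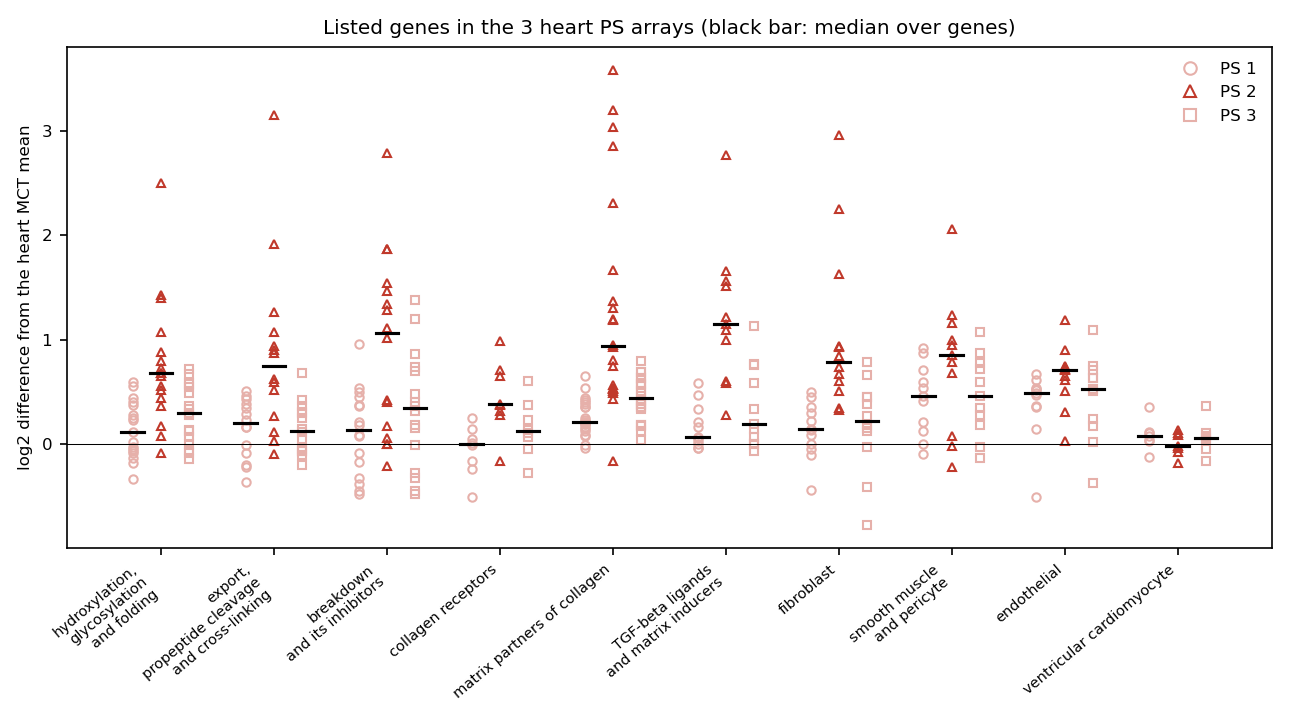
Log2 difference of each measured gene from its heart MCT mean in PS 1, PS 2 and PS 3, for the 6 collagen pathway lists and 4 cell type lists; each symbol is 1 gene and the black bar is the median over the genes of a list. PS 2 has the highest median in every list except ventricular cardiomyocyte, where it is -0.02.

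In cerebrum, none of the 13 tested collagen rows passed in limma, where 734 of 12733 tested rows did (5.76%, with 1.83% higher and 3.93% lower), and 3 had an unadjusted p under 0.05 (29.0% of all tested rows). The count over all rows rested on single arrays here too, at 0 without MCT 1 or PS 1, 2 without MCT 2, 145 without PS 2, 615 without MCT 3 and 1557 without PS 3. The other 33 rows were under the filter, at a mean below 5.04. Of the 46 rows 36 had a higher mean in PS with a median difference of 0.06, against 52.0% and 0.01 over all rows; with quantile normalization 29 of 46 were higher. Col19a1, Col20a1 row 2 and Col4a5 had every PS array above every MCT array (3 of 46, 11.2% of all rows), and Col25a1 and Col6a5 row 1 had every PS array below (2 of 46, 14.3%).

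Col25a1 had the lowest p. It read 5.86, 5.87 and 6.15 in MCT and 5.58, 5.29 and 5.74 in PS, a difference of -0.42 (SE 0.14, adjusted p = 0.097). The groups did not overlap, and PS 3 was the nearest to the MCT arrays. Col6a1 read 6.71, 6.48 and 6.57 in MCT and 5.96, 5.63 and 6.58 in PS, a difference of -0.53 (SE 0.22, adjusted p = 0.162). PS 1 and PS 2 were below every MCT array and PS 3 was among them. Without PS 3, where 12.2% of all tested rows passed, both did, Col25a1 at -0.53 (adjusted p = 0.0479) and Col6a1 at -0.79 (adjusted p = 0.015). Col6a2 did not share this, at 5.46, 5.37 and 5.58 in MCT and 5.56, 5.47 and 5.49 in PS (difference 0.04, 95% interval -0.16 to 0.23).

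The same 2 arrays were low in markers of the striatum, a region at the base of the cerebrum. The mean of 6 measured striatum markers was 9.89, 10.06 and 9.82 in MCT and 6.69, 6.73 and 9.22 in PS, and all 6 had a lower mean in PS; Penk, the one with the highest level, read 11.77 to 11.81 in MCT and 9.08, 9.13 and 11.57 in PS. In a fit that also held the striatum mean, added once the data had been seen, Col6a1 differed by 0.19 (adjusted p = 0.745) and Col25a1 by -0.16 (adjusted p = 0.8). The striatum mean moved with the treatment, and this fit left 1 of 12733 rows called in all, against 734, so it does not set these 2 chains apart from other rows.

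Col20a1 row 1, a fibril-associated chain, read 5.10, 5.04 and 5.49 in MCT and 5.50, 6.11 and 5.48 in PS, a difference of 0.49 (SE 0.20, adjusted p = 0.152), with PS 2 the highest and the groups overlapping. Col20a1 row 2 read 4.41, 4.33 and 4.40 in MCT and 4.58, 4.63 and 4.57 in PS, without overlap but under the filter. The X-linked Col4a5 read 4.23, 4.16 and 4.26 in MCT and 4.29, 4.47 and 4.34 in PS; its highest array was PS 2, which had the male pattern. Col1a1 differed by 0.15 (SE 0.10, adjusted p = 0.346), Col1a2 by 0.13 (SE 0.13, adjusted p = 0.536) and Col4a2 by 0.16 (SE 0.10, adjusted p = 0.301), and the 95% interval for Col1a2 was -0.17 to 0.43. Col23a1, a transmembrane chain, differed by 0.20 (SE 0.12, adjusted p = 0.287) and Col26a1 by 0.11 (SE 0.14, adjusted p = 0.629). The mean of 11 endothelial markers was 6.53, 6.36 and 6.80 in MCT and 6.92, 7.17 and 6.55 in PS. Of these 11, 10 had a higher mean in PS (52.0% of all rows) and 4 an unadjusted p under 0.05 in limma (29.0% of all tested rows). The mean of 13 leptomeninges markers was 5.48, 5.53 and 5.95 in MCT and 6.13, 5.98 and 5.92 in PS. That of 10 choroid plexus markers was 5.23, 5.92 and 4.36 in MCT and 4.15, 3.84 and 4.28 in PS. Their part in the collagen values was not tested.

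**Figure D5:**
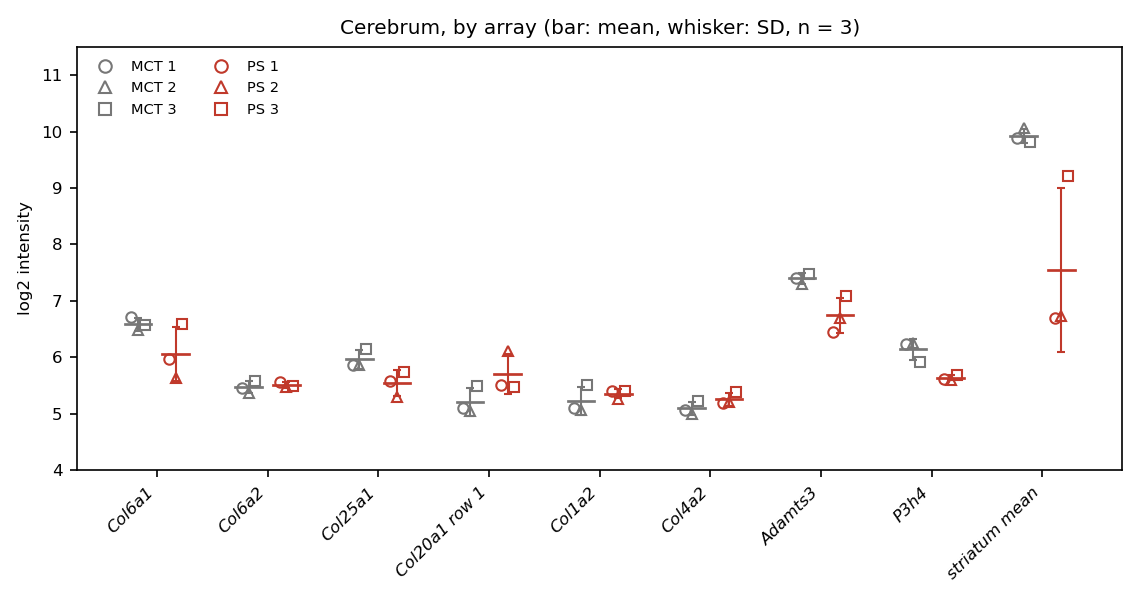
Log2 intensity in each cerebrum array of 6 collagen rows, 2 genes of collagen processing and the mean of 6 striatum markers, MCT in grey and PS in red, with the symbol giving the array number, the bar the mean and the whisker the SD of 3 arrays. Col6a1, Col25a1, Adamts3 and the striatum mean are lowest in PS 1 or PS 2, and P3h4 is lower in all 3 PS arrays.

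Of 57 tested genes of the pathway lists in cerebrum 1 passed, a smaller share than the 5.76% of all tested rows. P3h4, a component of the complex that modifies lysines of fibrillar chains, read 6.24, 6.25 and 5.92 in MCT and 5.62, 5.60 and 5.69 in PS, and fell by 0.50 (SE 0.11, adjusted p = 0.0443). All PS arrays were below all MCT arrays. The call was lost without MCT 1 (adjusted p = 0.188), MCT 2 (0.156), PS 1 (0.119) or PS 2 (0.0847), without the filter (0.0536) and with all transcript clusters tested (0.0747), and it held in 6 of 16 alternatives. Adamts3, the proteinase that cuts the N-propeptide of procollagen, had 16 rows, all with a lower mean in PS, by -0.86 to -0.35; 1 of the 16 passed (adjusted p = 0.0384), and they measure 1 gene. Its row with the highest mean read 7.41, 7.30 and 7.48 in MCT and 6.45, 6.69 and 7.08 in PS, a difference of -0.66 (SE 0.16, adjusted p = 0.0521), with PS 1 lowest. In the fit that also held the striatum mean, the Adamts3 difference was -0.19 and that of P3h4 was -0.41 (adjusted p = 0.472 in limma). P3h4 was also not called in 1 fit over all 12 arrays (0.0752) or with the Xist pattern as a covariate (0.0826).

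No other listed gene passed in cerebrum, where each is given by its highest-mean row. The counts of higher means are to be read against 52.0% over all rows. Of 17 genes for hydroxylation, glycosylation and folding 8 had a higher mean, and Fkbp14, a folding enzyme, differed by -0.37 (SE 0.10, adjusted p = 0.0714). Of 14 for export, cleavage and cross-linking 8 were higher, and Pcolce differed by 0.62 (SE 0.19, adjusted p = 0.0854). Of 16 for breakdown 9 were higher, and Timp2 differed by -0.29 (SE 0.08, adjusted p = 0.0779). Ddr2, a tyrosine kinase receptor for fibrillar collagen, differed by 0.46 (SE 0.14, adjusted p = 0.0801), where 4 of 8 receptors were higher. Of 22 matrix partners 18 were higher, and Fn1, fibronectin, differed by 0.94 (SE 0.29, adjusted p = 0.0867). Of 11 TGF-beta ligands and inducers 7 were higher, and Ltbp4 differed by 0.52 (SE 0.13, adjusted p = 0.059).

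The difference of the PS effect between heart and cerebrum was tested over all 12 arrays. None of 14 tested collagen rows passed in limma, where 194 of 12731 rows did (1.52%, with 1.10% higher and 0.424% lower), and 4 had an unadjusted p under 0.05 (19.2% of all tested rows). Over all rows the count ran from 3 without cerebrum MCT 1 to 1629 without heart MCT 3. Of the 46 rows 23 had the higher value in heart, and the median was 0, against -0.02 over all rows. Col6a1 had mean differences of opposite sign, 0.84 in heart and -0.53 in cerebrum, neither past the threshold. The difference between them was 1.37 (SE 0.50, adjusted p = 0.17). Col14a1 differed by 1.55 (SE 0.60, adjusted p = 0.185), Col6a2 by 0.98 (SE 0.38, adjusted p = 0.189) and Col6a6 row 1 by -0.35 (SE 0.14, adjusted p = 0.205). Without heart PS 2 the difference for Col6a1 was 0.855 (adjusted p = 0.214) and that for Col14a1 was 0.88 (adjusted p = 0.162). That for Col1a1 turned from 0.47 to -0.23.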

How the data were processed

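The submitters' processing notes name Affymetrix Expression Console as the authors' tool. Not given in the sources used here were its version, background correction, probe summary and genome build. The authors deposited 1 value per row and array, read here as log2 intensity because the values reach 13.11, above 11.1, the natural log of the largest 16-bit scanner value. No further normalization was applied. Comparisons used limma 3.58.1 in R 4.3.3 (lmFit and eBayes, Benjamini-Hochberg over all tested rows, threshold 0.05, filter at the 40th percentile), on the groups compared or, for the difference between tissues, on all arrays. The code of the fits was run on simulated data with independent normal noise. These held no outlying array such as heart PS 2, so they cannot vouch for the p-values given here. P-values measure the spread between these samples. The 46 collagen rows, the gene lists and the named genes were chosen with earlier results of these data known. Named were up to 8 collagen rows by lowest p per PS comparison, up to 6 per direction between tissues, 6 fixed chains, and up to 2 genes per pathway list; further rows are described to cover each class. A pathway gene with several rows was represented by the row with the highest mean.

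Replicate numbers were checked for pairing from the correlation of same-numbered arrays' deviations from their group means. For heart and cerebrum of MCT mice these were 0.114, 0.102 and 0.287. Among unlike numbers of these groups, heart MCT 1 and cerebrum MCT 2 gave 0.191, and the rest -0.248 to 0.097. Same-numbered arrays gave 0.115, 0.098 and 0.054 in PS mice. For PS against MCT they gave 0.032, 0.086 and 0.122 in heart and 0.113, -0.15 and -0.263 in cerebrum. These values do not show whether equal numbers came from 1 mouse, and the comparisons above were not paired. A replicate block was run as an alternative only. Between tissues in MCT mice 10 collagen rows passed with it, as without it (76.2% of all tested rows with it). Alternatives covered scaling, filter, rows tested, intensity trend, array weights, block, covariates, the arrays in the fit and leaving out each array. Another 2 rows hold a collagen symbol among several and were not used.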

Additional observations from a re-analysis of the deposited data

Results flagged for a closer look

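Smad7, the inhibitor of TGF-beta signalling, had a PS effect that differed between the tissues by the test of the difference itself. It read 6.61, 7.03 and 6.78 in heart MCT and 7.39, 7.90 and 7.57 in heart PS, and 7.40, 7.41 and 7.33 in cerebrum MCT and 6.61, 6.63 and 7.16 in cerebrum PS. Every PS array was above every MCT array in heart and below in cerebrum, where PS 1 and PS 2 were the lowest. The difference of the effects was 1.39 (SE 0.24, adjusted p = 0.0205 in limma). Smad7 was the 1 call among 68 tested genes of the pathway lists, a share close to the 1.52% of all tested rows. The call was lost without cerebrum MCT 1 (adjusted p = 0.0649), MCT 2 (0.0632), PS 1 (0.0724) or PS 2 (0.0567), and it held without heart PS 2 (1.25, adjusted p = 0.0454). The striatum markers, low in the same 2 cerebrum arrays, move with it. All heart PS arrays but only some cerebrum PS arrays had the female pattern, and no MCT array did. The part of the striatum markers or of this pattern in the Smad7 result was not tested.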

How the results depend on the processing

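Array weights called 7 collagen rows in heart (Col14a1, Col18a1, Col20a1 row 1, Col4a1, Col4a2, Col6a2 and Col6a6 row 1) but also 6987 of 12736 rows in all, and 2 in cerebrum (Col20a1 row 1 and Col6a1; 3407 rows in all); the estimate of weights stopped before convergence in some of these fits. One fit over all 12 arrays called 2 in heart (Col14a1 and Col6a2; 12.3% of all tested rows), and the Xist pattern as a covariate called 2 in cerebrum (Col20a1 row 1 and Col25a1; 6.28% of all tested rows). Leaving out single arrays gave 0 collagen calls in heart and 0 to 2 in cerebrum, 0 for the difference between tissues, 9 to 10 between the tissues in MCT mice and 11 to 14 in PS mice. Of all tested rows, these fits called 0.0314% to 26.8% in heart, 0% to 12.2% in cerebrum and 0.0236% to 12.8% for the difference. Between the tissues they called 67.7% to 81% in MCT mice and 70.3% to 74% in PS mice. Without the filter 26 of 46 collagen rows passed in each tissue comparison, where 62.2% of all rows passed in MCT mice and 56.5% in PS mice. With all transcript clusters tested 20 of 35 passed in MCT mice (65.9% of all tested rows). A filter at the 60th percentile left 2 of 2 tested collagen rows passing in PS mice (77.7% of all tested rows). It left no tested collagen row in MCT mice or in cerebrum. Over the fits that left out single arrays, signs turned, among others, for Col1a1 in heart (-0.075 to 1.025) and for the difference between tissues (-0.225 to 0.875), lowest without heart PS 2; for Col8a1 without heart PS 2 (-0.24 in heart, -0.265 for the difference) and the untested Col6a5 row 1 (-0.295 in heart); for Col26a1 in cerebrum (-0.023 to 0.212), lowest without MCT 2; and for Col6a1 between tissues in MCT mice (-0.072 to 0.113), below 0 without heart MCT 2 or cerebrum MCT 2. The striatum mean as a covariate, an alternative added after the data were seen, turned Col6a1 (0.19) and Col26a1 (-0.15) in cerebrum, and quantile normalization turned Col23a1 between tissues in PS mice (0.041). The cause was not tested. The replicate block called 0 collagen rows in heart, 0 in cerebrum, 0 for the difference between tissues and 15 between tissues in PS mice, and 88, 0, 143 and 9596 rows in all. It ended the call of P3h4 in cerebrum (adjusted p = 0.126). Low signal limits these data: 23 to 33 of 46 collagen rows were under the filter in each comparison.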
